A study of Mus musculus with 369 samples.

Results

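Trem2 and 8 genes whose products act with it or directly downstream of it were followed in single microglia, the resident macrophages of the brain. The 9 genes are Trem2, the adaptors Tyrobp and Hcst, the signalling genes Syk, Plcg2, Vav1 and Pik3ap1, and the phosphatases Inpp5d and Ptpn6. They were chosen by symbol, and all 9 were found among the 23337 genes of the count table. Levels, differences between groups and the relation of each gene to Trem2 from cell to cell are given for the cells that passed the quality criteria.

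Cells were sorted from the whole brain of male animals at postnatal day 7. The background was C57BL/6J throughout, and the genotype was either wild type or TREM2_KO. Each genotype was sorted by flow cytometry through the gate CD45lowCD11+, called unselected here, and through the gate CD45lowCD11+Gpnmb+Clec7a+, called gated here. RNA was profiled with Smart-seq2, which primes on the poly(A) tail, reads full-length cDNA of single cells and carries no molecular identifiers. The 334 cells that passed, beside 35 that failed, were 78 unselected and 90 gated cells of wild type, and 90 unselected and 76 gated cells of the knockout. A group is 1 sample, because it fills a single plate and no animal is named. Where 4 values follow each other below, they stand in that order of groups. No test between groups was possible, and genotype or gate cannot be told apart from plate. Which part of Trem2 the knockout removes was not known here.

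Trem2 is a surface receptor for lipids and lipoproteins with a short intracellular tail, and it signals through partner proteins in the membrane. Tyrobp (DAP12) carries an activation motif that is phosphorylated by Src family kinases and then binds the kinase Syk, while Hcst (DAP10) recruits PI3 kinase. Syk acts on phospholipase C gamma 2 (Plcg2), which raises calcium, and on the exchange factor Vav1, which acts on the cytoskeleton, and Pik3ap1 (BCAP) links tyrosine kinases to PI3 kinase. Inpp5d (SHIP1), which removes a phosphate from the lipid made by PI3 kinase, and Ptpn6 (SHP-1), a tyrosine phosphatase, restrain the signal. In microglia this pathway is known for lipid sensing, survival and the shift to the state seen around plaques and in developing white matter.

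The adaptor genes are neighbours in the genome. On mm10, with gene models of GENCODE, Trem2 spans chr17:48346401-48354147 on the plus strand. Tyrobp spans chr7:30413760-30417585 on the plus strand, and Hcst spans chr7:30417712-30419854 on the minus strand, so the adaptor genes run towards each other with 126 bases between their ends. Neither overlaps another annotated gene. An antisense gene overlaps Ptpn6 (chr6:124720707-124738714, minus strand) and a miRNA gene overlaps Plcg2 (chr8:117498291-117635142, plus strand). Reads from such partners cannot be told apart here in a count per gene, and the strand setting of the counting was not known. The other genes were Syk (chr13:52583173-52648792, plus strand), Inpp5d (chr1:87620312-87720507, plus strand), Vav1 (chr17:57279100-57328031, plus strand) and Pik3ap1 (chr19:41272377-41385102, minus strand).

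Promoter sequence was read for 8 of the 9 genes from RefSeq (GRCm38.p6), from 250 bases before to 50 bases after a gene's start. Tyrobp had no entry. The motif AGGAAGT, a core letter string bound by ETS family factors such as the macrophage regulator PU.1, was searched on both strands, and it was picked after the promoters had been read. It stood in 4 of the 9 promoters of these genes, those of Hcst, Inpp5d, Vav1 and Ptpn6. Of all 32851 promoters of the same length 9.35% hold it, and because the motif was picked from the promoters shown, nothing is read from the difference. It was not found in the windows of Trem2, Syk, Plcg2 and Pik3ap1. The matches are shown because the 4 genes did not share a direction in the comparisons that follow. Capitals mark the motif, or in Ptpn6 its reverse complement, and each sequence is written 5′ to 3′ on the strand of its gene. A match is a description of these letters and not a measured binding site.
Hcst, chr7:30419884-30419910, minus strand: tgttctccaaAGGAAGTcttgacacac
Hcst, chr7:30419855-30419881, minus strand: gcacccacacAGGAAGTaggtagcatt
Inpp5d, chr1:87620283-87620309, plus strand: ttctataatgAGGAAGTtctgtgcagc
Inpp5d, chr1:87620333-87620359, plus strand: tgcctgaaacAGGAAGTcagtcagtta
Vav1, chr17:57279080-57279106, plus strand: gtcacagaagAGGAAGTggtgttgtag
Ptpn6, chr6:124738883-124738909, minus strand: ggctagggttACTTCCTgggctttgct

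Passing cells held 157653 to 1051282 gene counts, and the groups differed in how many genes and how much RNA was seen per cell. The median number of detected genes per cell was 2607.5, 3162.5, 2184 and 3995. The median gene count per count of added spike-in RNA was 24.9, 39.8, 18.1 and 53.7. All 11 microglia markers had counts in every group, with summed levels of 50583, 34398, 50976 and 26040 CPM (counts per 1000000 gene counts). The 10 border-associated macrophage markers summed to 846, 2040, 902 and 2095 CPM, and F13a1 was at 0 in both unselected groups. The 4 haemoglobin and red cell genes summed to 115, 404, 0.826 and 4.56 CPM, and so differed with the genotype. The monocyte genes Ly6c2 and Ccr2 were at 0 in every group, where a count of 0 allows up to 0.077, 0.0558, 0.0527 and 0.0594 CPM. Lymphocyte and natural killer markers did not exceed 2.79 CPM in sum. Of the passing cells, 1 from the knockout unselected plate had no microglia marker after thinning to equal depth.

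Trem2, the targeted gene, was lower in knockout than in wild-type cells under both gates, and its reads were not absent from the knockout cells. Counts summed over the cells of a group gave 1115 CPM in wild-type unselected cells (95% Poisson interval 1105 to 1126) and 229 CPM in knockout unselected cells (225 to 233). The gated groups were at 1604 CPM (1593 to 1615) in wild type and 413 CPM (407 to 419) in knockout. These intervals cover counting error only, since amplified reads are not independent molecules. The knockout level was 4.85-fold lower in unselected and 3.88-fold lower in gated cells, or -2.28 and -1.96 on the scale of log2(CPM + 1) used for all differences here.

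Single cells showed the same order, with some overlap. Trem2 ranged from 0 through a median of 985 to 3669 CPM in wild-type unselected cells and from 0 through 195 to 1197 CPM in knockout unselected cells. The highest knockout cells thus lay above the wild-type median, while the knockout upper quartile of 320 CPM lay below the wild-type lower quartile of 663 CPM. In gated cells the range was 34.9 through 1509 to 5287 CPM in wild type and 0 through 363 to 859 CPM in knockout, so that every knockout gated cell was below the wild-type gated lower quartile of 1141 CPM. Reads from parts of Trem2 outside a deletion would still be counted, and which part of the gene the knockout reads come from cannot be read from a count per gene.

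After each cell was thinned to 100000 gene counts, Trem2 had a count in 98.7% of wild-type unselected and 98.9% of wild-type gated cells. The share was 67.8% of knockout unselected cells (exact Clopper-Pearson 95% interval 57.1 to 77.2) and 96.1% of knockout gated cells (88.9 to 99.2). Without thinning these knockout shares were 71.1% and 96.1%. The knockout cells with no Trem2 count were therefore mostly unselected cells, 29 against 3, and the unselected plate also had the fewest detected genes per cell. Quality-passed cells of knockout origin carried Trem2 reads on both plates.

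**Figure D1:**
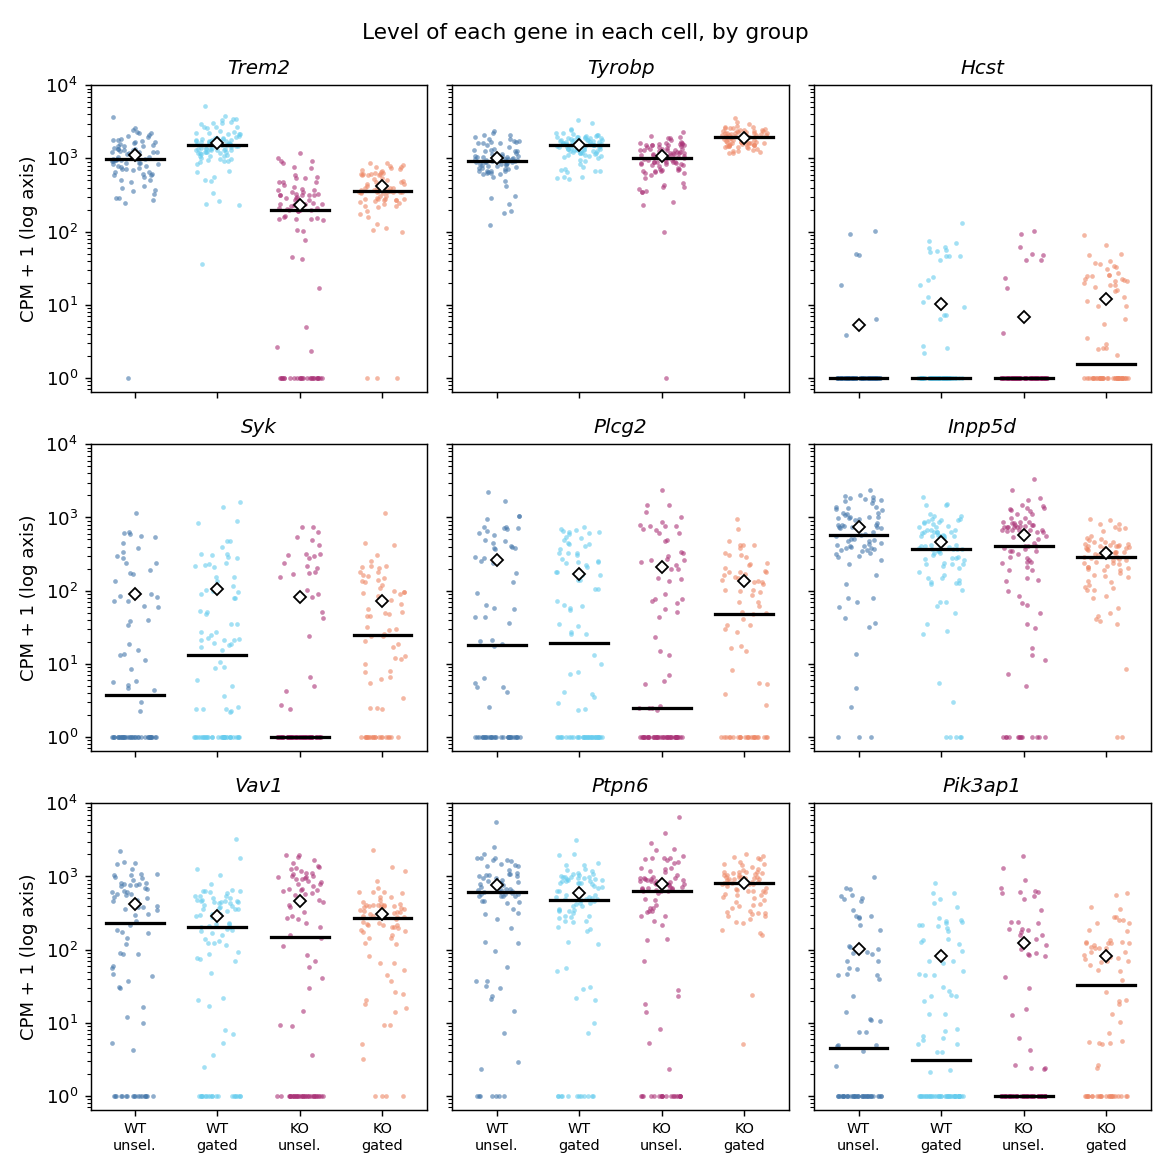
Level of each of the 9 genes in every passing cell (CPM + 1, log axis) for wild-type (WT) and knockout (KO) cells, unselected (unsel.) or gated. Dots are cells, black lines are medians over cells and diamonds are the level of the summed counts. Trem2 medians are 985 and 1509 CPM in wild type and 195 and 363 CPM in knockout. Tyrobp has counts in nearly every cell, while Hcst, Syk, Plcg2 and Pik3ap1 have many cells at 0.

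Tyrobp, the main adaptor of Trem2, was found in nearly every cell of either genotype. Its level was 1014, 1515, 1077 and 1930 CPM. Its cells ranged from 123 through a median of 934 to 2337 CPM in wild-type unselected and from 0 through 1017 to 2263 CPM in knockout unselected cells. The ranges of these 2 groups overlapped over most of their length. In gated cells Tyrobp ranged from 515 through 1506 to 3344 CPM in wild type and from 1193 through 1947 to 3528 CPM in knockout, so the lowest knockout gated cell stood near the wild-type lower quartile of 1197 CPM. With thinned cells a single cell of all 334 had no Tyrobp count.

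Tyrobp also varied least from cell to cell among the 9 genes. The coefficient of variation of its CPM over cells was 0.474, 0.344, 0.446 and 0.249. For Trem2 it was 0.574, 0.531, 1.12 and 0.513. Spike-in RNAs, which are added in equal amounts, give the technical part of such spread, and the 5 of nearest mean count to Tyrobp had a median coefficient of 0.226, 0.257, 0.358 and 0.122. Tyrobp was above that median in each group. The highest of the 5 stood at 0.698, 0.576, 0.536 and 0.247, so Tyrobp lay within their range in all but knockout gated cells. In wild-type gated cells the 5 had mean counts of 433 to 745, below the 905 of Tyrobp. In knockout unselected cells they had 786 to 1009, above its 681. For Trem2 the matching spike-in medians were 0.226, 0.257, 1.01 and 0.373, and the highest values 0.468, 0.576, 1.59 and 0.616.

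Hcst, the second adaptor, was near the limit of detection. Wild-type cells had 4.21 CPM (95% Poisson interval 3.59 to 4.90) when unselected and 9.26 CPM (8.47 to 10.11) when gated. On the knockout plates it was at 5.75 CPM (5.14 to 6.40) without and 10.9 CPM (10.04 to 11.9) with the Gpnmb and Clec7a gate. The median cell was at 0 in all groups but the knockout gated one, where it was 0.534 CPM, and the highest cell was between 88.1 and 132 CPM. Thinned cells with a count made up 7.69%, 21.1%, 10.0% and 39.5%, so Hcst was seen more often in both gated groups. In wild-type unselected cells 1 cell held 29.9% of all Hcst counts.

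Per kilobase of the principal transcript, which allows levels of different genes to be compared, the adaptors stood far apart. Tyrobp was first in each group, at 1798, 2686, 1909 and 3422 CPM per kilobase. It exceeded Hcst 189-fold, 128-fold, 147-fold and 138-fold. Hcst was last in the unselected groups and at rank 7 in the gated ones. Tyrobp stood 1.75-fold and 1.82-fold above Trem2 in the wild-type groups and 9.07-fold and 9.02-fold above it in the knockout groups. Within single cells Tyrobp was above Trem2 per kilobase in 83.3% of wild-type unselected and 88.9% of wild-type gated cells, and in 96.7% and 100% of the knockout cells. The knockout values use the annotated length of Trem2, and the length of the transcript that remains in the knockout was not known. With the union of all annotated exons as length, a choice added after seeing the data, the ratios of Tyrobp to Trem2 were 6.74, 7.00, 34.9 and 34.7, since Trem2 then has 4946 bases in place of 1088.

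Among the intracellular genes Ptpn6 had the highest level per kilobase in each group, and Inpp5d and Vav1 followed. In wild-type unselected cells Ptpn6 had 340 CPM per kilobase, Inpp5d 149, Vav1 142, Plcg2 61.02, Pik3ap1 22.6 and Syk 16.8. Inpp5d and Vav1 were close neighbours, and Vav1 was the higher on the other plates, at 98.1 against 94.6 in wild-type gated cells. Pik3ap1, Syk and Hcst lay between 9.52 and 27.3 CPM per kilobase in all 4 groups, and Hcst was the lowest of them in unselected cells and the highest in gated cells. Trem2 came after Tyrobp in 3 groups, and in knockout unselected cells it was at 211 and came after Ptpn6 at 354. In knockout gated cells Trem2 (379) and Ptpn6 (368) were nearly level. These orders rest on the principal transcript. Trem2 has 1088 bases there and 4946 as the union of exons, against 2219 and 2802 for Ptpn6. The orders of Trem2 and Ptpn6, of Inpp5d and Vav1 and of Hcst and Pik3ap1 thus depend on the length used in at least 1 group.

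Syk, the kinase that Tyrobp recruits, was sparse. Its level was 90.1, 106, 80.96 and 71.2 CPM. The lowest cell was at 0 in each group, the medians were 2.71, 11.9, 0 and 23.6 CPM, and the highest cells were at 1131, 1638, 750 and 1156 CPM. The groups overlapped throughout. Thinned cells with a Syk count were 43.6%, 55.6%, 30.0% and 67.1%, and so the group with the lowest summed level, knockout gated, had the largest share of cells with a count. The highest single cell held between 8.68% and 18.7% of a group's Syk counts.

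Plcg2, the phospholipase downstream of Syk, was at 262, 166, 211 and 135 CPM. Its medians over cells were 16.9, 18.3, 1.48 and 47.5 CPM, with a lowest cell of 0 in each group and highest cells of 2219, 740, 2363 and 950 CPM. The highest cells of both unselected groups thus lay far above those of the gated groups. Thinned shares with a count were 51.3%, 52.2%, 44.4% and 61.8%.

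Vav1, the exchange factor that acts on the cytoskeleton, was at 419, 291, 464 and 307 CPM. Its cells had a lowest value of 0 in each group, medians of 231, 203, 150 and 268 CPM and highest values of 2244, 3236, 1974 and 2290 CPM. The share of thinned cells with a Vav1 count was 73.1%, 74.4%, 61.1% and 90.8%. Pik3ap1, the adaptor to PI3 kinase, was at 101, 81.9, 122 and 81.6 CPM. Its medians over cells were 3.48, 2.13, 0 and 31.6 CPM, its lowest cells were at 0, its highest cells were at 994, 806, 1919 and 601 CPM, and 41.03%, 42.2%, 37.8% and 59.2% of thinned cells had a count. Both genes had the lowest summed levels in gated cells, while their largest share of cells with a count was in the knockout gated group.

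The phosphatases that restrain the pathway were found in most cells. Inpp5d was at 737, 467, 581 and 325 CPM. Its cells had a lowest value of 0 in each group, medians of 569, 374, 407 and 286 CPM and highest values of 2367, 1909, 3342 and 938 CPM. The median was lowest in the knockout gated group, where the highest cell was also far below those of the other groups. Ptpn6 was at 754, 588, 785 and 817 CPM, with lowest cells of 0, 0, 0 and 4.15 CPM, medians of 619, 476, 637 and 802 CPM and highest cells of 5503, 3120, 6520 and 2015 CPM. Thinned shares with a count ran from 84.4% to 96.1% for Inpp5d and from 74.4% to 98.7% for Ptpn6, with the lowest share of both in knockout unselected cells. A single cell held 11.2% of the Ptpn6 counts in wild-type unselected and 11.3% in knockout unselected cells.

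**Figure D2:**
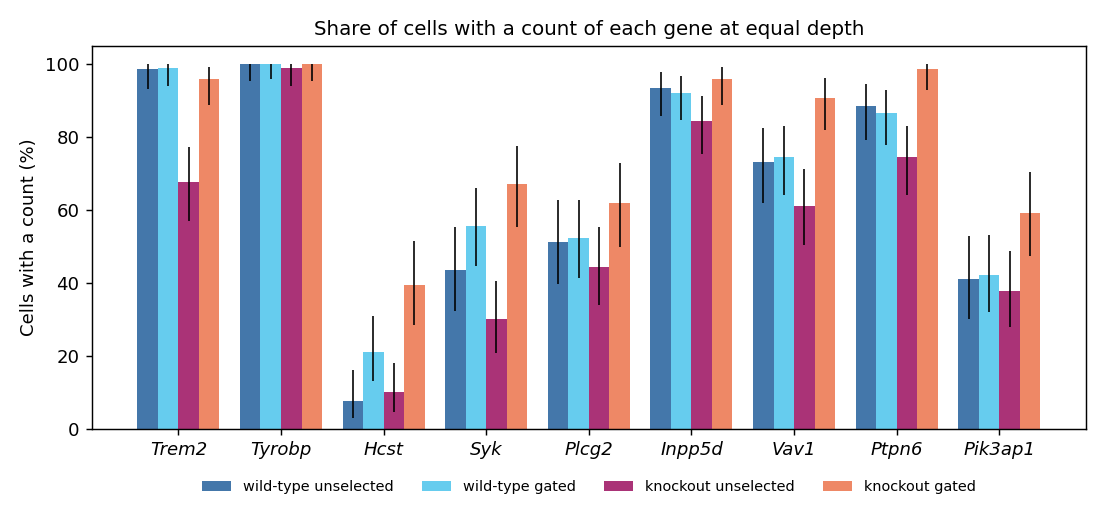
Share of cells with at least 1 count of each gene after thinning every cell to 100000 gene counts, with exact Clopper-Pearson 95% intervals, for the 4 groups. Bars start at 0; Trem2 is at 67.8% in knockout unselected cells against 96.1% or more in the other groups, and knockout gated cells have the highest share for Hcst, Syk, Plcg2, Inpp5d, Vav1, Ptpn6 and Pik3ap1.

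In summed counts, fewer cells with RNA of a gene and less RNA per cell cannot be told apart, and the shares add to the levels here. For all 8 partners the share was higher in knockout gated than in knockout unselected cells, although the level of 5 of them was lower. The median cell had counts of 6 of the 9 genes in both wild-type groups, and of 5 and 7 in unselected and gated knockout cells. All 8 partners together were found in 1 of 78, 4 of 90, 1 of 90 and 11 of 76 cells. Depth was equal after thinning, but the number of detected genes was not, and its part in these shares was not tested.

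The first comparison asked how the partners stood in knockout against wild-type cells. Of the 9 genes only Trem2 differed by 2-fold or more in unselected cells, against 29.8% of the 10554 genes that reached 5 CPM in any group. This is a rule of size, with the same direction required in the mean CPM per cell, and not a test. The 8 partners lay between -0.34 (Inpp5d) and 0.37 (Hcst) on the log2 scale, with 5 above and 3 below 0 and a median of 0.07 beside 0.05 for all measured genes. Tyrobp differed by 0.09, Ptpn6 by 0.06, Vav1 by 0.15 and Pik3ap1 by 0.27. Syk and Plcg2 differed by -0.15 and -0.31. When 56 cells per group were matched on detected genes, Syk was at -0.84 and Plcg2 at -0.58, while Inpp5d was at -0.15 and Hcst at 0.06. With spike-in counts as the scale, which moved the all-gene median to -0.38, all 8 partners were below 0 in knockout cells, and Tyrobp was at -0.40.

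In gated cells Trem2 was again the only one of the 9 genes at 2-fold or more between genotypes, against 23.5% of measured genes. That share was 16.6% among genes at 20 CPM and 6.13% with 10 CPM added. The partners ranged from -0.56 for Syk to 0.47 for Ptpn6, with 4 above and 4 below 0, and their median of 0.04 stood beside 0.00 for all measured genes. Tyrobp, at 1930 against 1515 CPM, was 0.35 higher in knockout gated cells (counting interval 0.34 to 0.36). It was above 0 in each of the 13 alternatives, from 0.32 to 0.73 on the scales other than the median cell. Ptpn6 was likewise above 0 in all 13. Inpp5d was at -0.52 and below 0 in all 13, and in unselected cells, at -0.34, it was below 0 in all 13 too. Syk was below 0 in 12 of 13 and at -0.15 when cells were matched on detected genes. Plcg2 was at -0.30, at -0.65 in matched cells and at 0.08 by spike-in scaling. Hcst was at 0.22, Vav1 at 0.08 and Pik3ap1 at -0.01, and Pik3ap1 took the other sign in 9 of 13 alternatives, with 0.38 in matched cells. The red cell genes and the detected genes given above also differed between the genotypes, and their part in these differences was not tested.

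**Figure D3:**
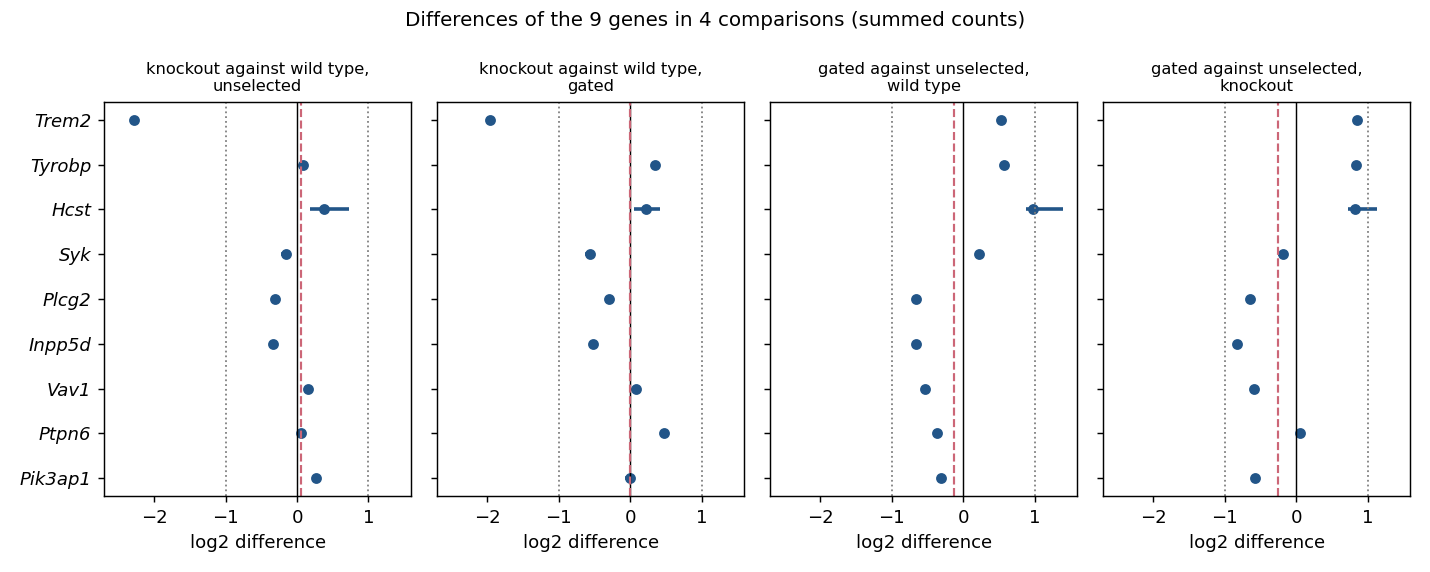
Differences of the 9 genes in 4 comparisons, as log2 of (CPM + 1) of the summed counts, with 95% counting intervals of the plain ratio drawn as bars that are narrower than most dots. The black line marks 0, dotted lines mark 2-fold and the dashed line marks the median of all measured genes; Trem2 is beyond the 2-fold line in both genotype comparisons, and Trem2, Tyrobp and Hcst lie right of the dashed line in both gate comparisons while Plcg2, Inpp5d and Vav1 lie left of it.

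The second comparison set gated against unselected cells. In CPM, Trem2, Tyrobp and Hcst were above 0 in both genotypes and Plcg2, Inpp5d, Vav1 and Pik3ap1 below 0, but by spike-in scaling all 9 genes were above 0 in knockout. In wild type none of the 9 genes reached 2-fold, against 35.1% of measured genes. That share was 28.8% among genes at 20 CPM and 15.6% with 10 CPM added. Trem2 was 0.52 higher in gated cells, Tyrobp 0.58 and Hcst 0.98. Hcst lay at the edge of the size rule, and with 0.1 in place of 1 CPM added it was at 1.12. Syk was at 0.23. Inpp5d and Plcg2 were both at -0.66, and Vav1 at -0.53. Ptpn6 and Pik3ap1 were at -0.36 and -0.30, but at 0.11 and 0.16 by spike-in scaling.

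In knockout cells again none of the 9 genes reached 2-fold between the gates, against 34.3% of measured genes. That share was 28.8% among genes at 20 CPM and 14.4% with 10 CPM added. Trem2 was 0.85 higher in gated cells, so the remaining Trem2 reads of the knockout were also more abundant under the Gpnmb and Clec7a gate. Tyrobp was 0.84 higher and Hcst 0.82 higher. Inpp5d was at -0.83, Plcg2 at -0.65, Vav1 at -0.60 and Pik3ap1 at -0.58, all of which were above 0 by spike-in scaling (0.50, 0.68, 0.74 and 0.75), while Ptpn6 and Syk were at 0.06 and -0.18 (1.39 and 1.13 by spike-in scaling).

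The median of all measured genes was itself -0.12 between the gates in wild type and -0.26 in knockout. Relative to it, Trem2 was at 0.65 and 1.104, Tyrobp at 0.70 and 1.098 and Hcst at 1.101 and 1.08 in wild type and knockout. Inpp5d was at -0.53 and -0.58, Plcg2 at -0.53 and -0.39 and Vav1 at -0.40 and -0.34. The relative values of Trem2, Tyrobp and Inpp5d kept their sign in all 13 alternatives in both genotypes. Hcst, Plcg2 and Vav1 were at the other sign or at 0 under the median cell in at least 1 genotype, where many cells hold no count. With TMM factors, which set the bulk of genes near 0, Trem2, Tyrobp and Hcst were at 1.12, 1.11 and 1.06 in knockout. They were thus past 2-fold, beside 32.1% of all measured genes on that scale.

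Absolute amounts per cell cannot be read from CPM, and spike-in scaling gave other directions. On that scale the all-gene median was 0.29 between the gates in wild type and 0.98 in knockout. Inpp5d stood at -0.19 in wild type and at 0.50 in knockout gated against unselected cells, and Tyrobp at 1.05 and 2.18. Inpp5d was thus lower in its share of the RNA, and in knockout not lower per spike-in count. When cells were matched on detected genes, in 55 cells per wild-type group and 30 per knockout group, Tyrobp was at 0.52 and 0.75 and Inpp5d at -0.73 and -0.68. Trem2 was at 0.46 in wild type and at 0.42 in knockout, against 0.85 unmatched. In the matched knockout cells Pik3ap1 was at 1.81, against -0.58 unmatched, and Plcg2 at -1.71, against -0.65.

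Markers of border-associated macrophages moved with the gate, as given above, and 9 of the 10 were higher by 2-fold or more in gated cells of either genotype. The share of all measured genes, in either direction, was 35.1% in wild type and 34.3% in knockout. Mrc1, the other marker, was at 0.40 and -0.54. In knockout gated cells 1 cell held 100% of the Cd163 counts, 85.7% of those of Lyve1 and Clec10a and 66.6% of those of Cbr2. Cells with 5000 CPM or more of these markers numbered 7 in wild-type gated, 5 in knockout gated, 1 in knockout unselected and 0 in wild-type unselected cells. Without them, an alternative chosen after seeing the data, the gate differences were 0.57 and 0.84 for Trem2, 0.61 and 0.85 for Tyrobp and -0.65 and -0.78 for Inpp5d in wild type and knockout. These lie close to the values with all cells. Pik3ap1 moved more, from -0.30 to -0.59 in wild type and from -0.58 to -0.73 in knockout, as did Syk, to 0.33 and -0.31. Between the genotypes in gated cells Syk was at -0.83 without them, against -0.56 with them.

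Ptpn6 was the member whose gate difference had opposite signs in the genotypes by both summed counts and mean CPM per cell. It was at -0.36 in wild type and 0.06 in knockout, or -0.35 and 0.14 by mean CPM per cell, but at 0.11 and 1.39 by spike-in scaling, and the difference of 0.42 was not tested. Syk, at 0.23 and -0.18, was above 0 in both genotypes by mean CPM per cell, at 0.20 and 0.11. For Trem2 the gate difference was 0.32 larger in knockout with all passing cells, but with matched cells it was 0.46 in wild type and 0.42 in knockout. For Tyrobp it was 0.26 larger, and with 1 sample per group these have no replicate check.

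Cell-to-cell relations were read within plates, as Spearman's rho of CPM, with no p, because cells of a plate share library preparation, depth and detected genes. Tyrobp had a rho with Trem2 of 0.23 over 78 wild-type unselected cells and 0.28 over 90 wild-type gated cells. The median over all genes with 20 CPM and a count in 50% of thinned cells was 0.02 and -0.05 on these plates. Tyrobp lay at percentile 94.0 of 1342 genes and 99.1 of 1503 genes. In knockout cells its rho was 0.14 over 90 unselected and 0.10 over 76 gated cells, at percentiles 76.3 and 65.3, beside medians of 0.05 on both plates. All 4 values are weak.

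The rho of Trem2 and Tyrobp was the highest of the 36 pairs of the 9 genes by its mean over the plates, at 0.19, followed by Vav1 with Pik3ap1 at 0.14. Given the number of detected genes and gene counts, it was 0.23, 0.31, 0.13 and 0.13 on the 4 plates. Pearson's r of log2 values was 0.04 in wild-type unselected cells, a plate on which 1 cell had no Trem2 count. When levels were taken per spike-in count rather than as CPM, the rho of Tyrobp with Trem2 was 0.44, 0.68, 0.43 and 0.63, and the median of all genes also stood higher, at 0.13, 0.28, 0.24 and 0.28.

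**Figure D4:**
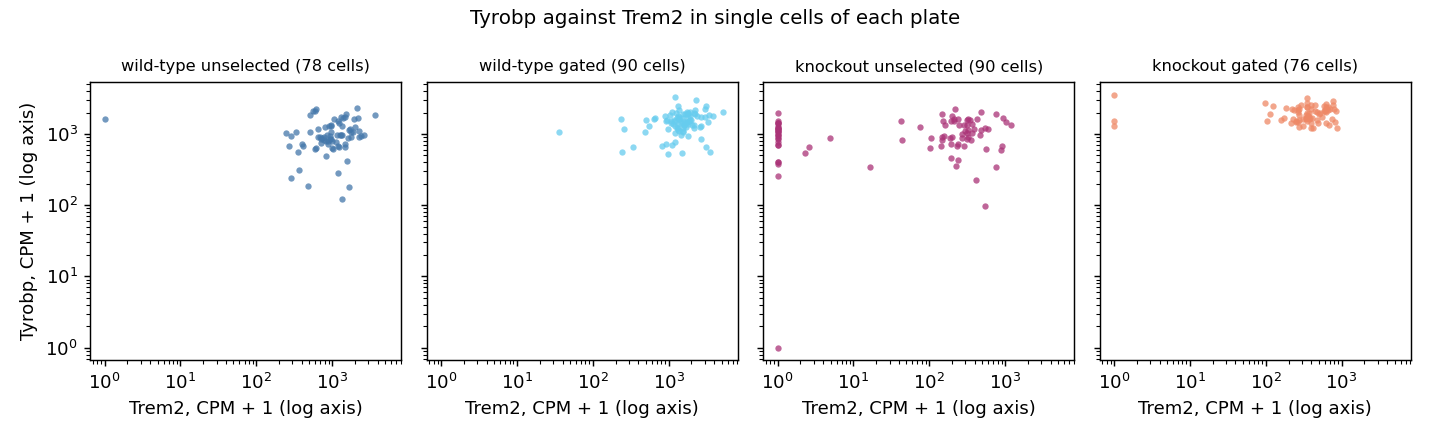
Tyrobp against Trem2 (CPM + 1, both axes log) in every passing cell, 1 panel per plate with 78, 90, 90 and 76 cells. Points at the left edge are cells without Trem2 counts, which are most common in knockout unselected cells, and their Tyrobp levels lie mostly within the range of the other cells of that plate.

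The other partners had rho values with Trem2 between -0.18 and 0.24. Plcg2 was above 0 on each plate, at 0.08, 0.03, 0.24 and 0.01. Inpp5d was below 0 in both wild-type groups, at -0.15 and -0.09, and above 0 in both knockout groups, at 0.14 and 0.16. Syk was at 0.13, -0.18, -0.04 and -0.11, and Pik3ap1 lay between -0.09 and -0.01. Hcst was at -0.04, -0.05, 0.13 and 0.08, Vav1 at -0.01, -0.02, 0.17 and 0.11 and Ptpn6 at 0.10, -0.14, 0.02 and 0.00. In counts this sparse such weak values are descriptions and no findings. Tyrobp and Hcst, the adjacent adaptor genes, had a rho of 0.04, 0.14, -0.15 and -0.05. On the knockout unselected plate Trem2 itself had a rho of 0.34 with the number of detected genes, beside 0.07, -0.16 and 0.15 on the wild-type unselected, wild-type gated and knockout gated plates.

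**Figure D5:**
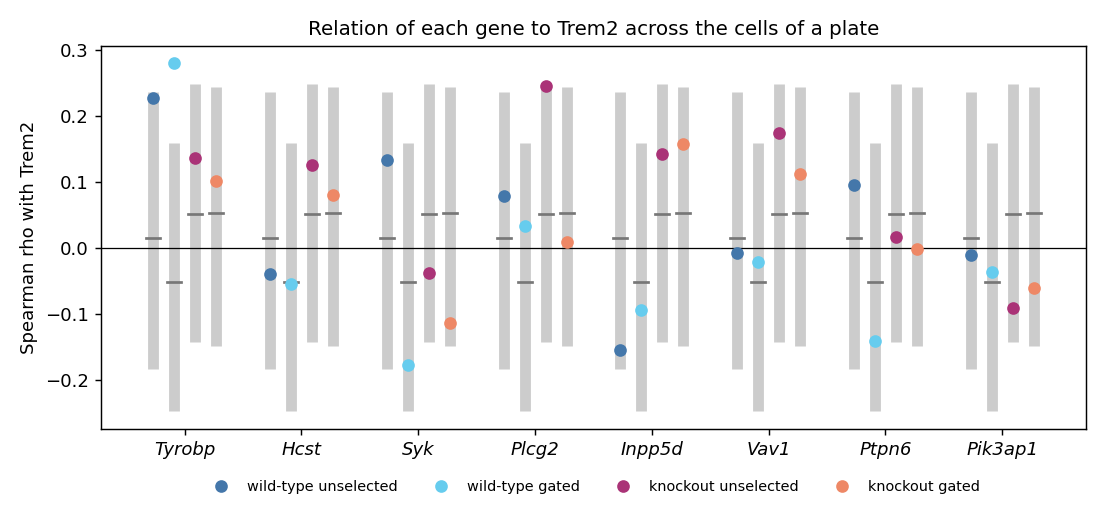
Spearman's rho of each partner with Trem2 across the cells of a plate (coloured points), beside the range from the 5th to the 95th percentile (grey bars) and the median (grey ticks) over all genes of sufficient level on that plate. Tyrobp in wild-type gated cells, at 0.28, lies above its grey bar, and all other points lie within theirs. Hcst on every plate, and Syk, Plcg2 and Pik3ap1 on at least 1 plate, were too sparse to be among the genes of the grey bars. Little can be read from their place within the bars there.

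None of the partners was as near to Trem2 as the 5 genes of highest rho. By the mean rho of the wild-type plates over 1113 genes they were the cathepsin Ctsb at 0.41, the tetraspanin Cd63 at 0.40, progranulin (Grn) at 0.35, ferritin light chain (Ftl1) at 0.34 and the vesicle protein Syngr1 at 0.34, beside a median of -0.01. Nearest to Tyrobp over all 4 plates, among 850 genes, were Ctsb at 0.42, the NADPH oxidase subunit Cyba at 0.39, Ftl1 at 0.39, selenoprotein P (Sepp1) at 0.39 and the cathepsin Ctsd at 0.37. Ctsb and Ftl1 were thus in both lists of 5. With the remaining Trem2 reads on the knockout unselected and gated plates, Ctsb had a rho of 0.26 and 0.09 and Cd63 of 0.20 and -0.03. Grn was at 0.16 and -0.0018, Ftl1 at 0.37 and 0.20 and Syngr1 at 0.14 and 0.28, beside medians of 0.05 on both plates. The knockout plates were used to rank the Tyrobp list but not the Trem2 list, so the values of the lists on these plates are not compared.

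Of 145 further genes of the pathway from 12 lists, 122 reached 5 CPM in any group. Between the genotypes 14 were higher and 13 lower by 2-fold or more in knockout unselected cells, or 22.1% beside the 29.8% of all measured genes. In gated cells 9 were higher and 14 lower, or 18.9% beside 23.5%. Between the gates 18 were higher and 17 lower in wild type (28.7% beside 35.1%) and 14 higher and 29 lower in knockout (35.2% beside 34.3%). Their medians were -0.02, -0.13, -0.12 and -0.28, beside 0.05, 0.00, -0.12 and -0.26 for all measured genes.

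Among ligands and co-receptors of Trem2, 2 of 4 measured genes were higher by 2-fold or more in gated cells of both genotypes, and 2 were lower in knockout gated cells. The share of all measured genes past 2-fold was 35.1% in wild type and 34.3% in knockout. For 1 of the lower genes, a single cell held nearly all counts on each knockout plate. Apoe, a lipoprotein ligand, was at 11090, 30471, 11028 and 29891 CPM. Its gate differences were 1.46 and 1.44 and its genotype differences -0.01 and -0.03. Lgals3, a galectin that binds Trem2, was at 1.85, 90.6, 25.3 and 244 CPM, and was found in 30.0% of wild-type gated and 78.9% of knockout gated thinned cells, while 1 cell held 46.1% of its counts in knockout unselected cells. Csf1r, the receptor for the growth factor of microglia, which also signals through Tyrobp, was at 9060, 6334, 8422 and 3773 CPM. Within plates Apoe had a rho with Tyrobp of 0.32, 0.33, 0.31 and 0.44, and with Trem2 of 0.32, 0.32, 0.07 and 0.06. Its values with Trem2 were thus near 0 on the knockout plates.

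Of 6 measured genes for other receptors that use Tyrobp or Hcst, 1 was higher and 1 lower between the gates in wild type. In knockout 1 was higher and 3 were lower, beside 35.1% and 34.3% of all measured genes past 2-fold in wild type and knockout. Siglech, a Tyrobp-coupled lectin and microglia marker, was at 2435, 936, 1748 and 425 CPM. It was therefore lower in gated cells while Tyrobp was higher. Itgam, which encodes the sorted marker CD11b, was at 512, 337, 504 and 236 CPM. Clec5a, another receptor that couples to Tyrobp, was at 113, 149, 163 and 195 CPM. Klrk1, the receptor that uses Hcst in natural killer cells, was at 0 in each group.

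Among 2 measured genes for other adaptors with activation motifs, none was 2-fold apart in any of the 4 comparisons. The share of all measured genes ran from 23.5% to 35.1% in these comparisons. Fcer1g, the common gamma chain of Fc receptors, was at 908, 1081, 875 and 1256 CPM. It had a rho with Tyrobp of 0.24, 0.28, 0.26 and 0.53 on the 4 plates and with Trem2 of 0.23, 0.10, -0.04 and 0.35.

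Of 8 measured Src family kinases and regulators, none was higher and 2 were lower by 2-fold or more between the gates in wild type. In knockout none was higher and 4 were lower. The share of all measured genes past 2-fold was 35.1% in wild type and 34.3% in knockout. The medians of the list were -0.60 and -0.996, beside -0.12 and -0.26 for all measured genes. The counts of this list rest in part on few cells. Yes1, a Src family kinase, was past 2-fold in both genotypes, with 51.99% of its wild-type unselected counts in 1 cell, and all Fgr counts came from 1 knockout unselected cell. Lyn, a main Src family kinase of myeloid cells, was at 486, 374, 620 and 316 CPM, a gate difference of -0.38 in wild type and -0.97 in knockout. Ptprj, a phosphatase acting on Src family kinases, was at 47.1, 73.7, 108 and 28.995 CPM, with a gate difference of 0.64 in wild type and -1.86 in knockout.

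Syk and Tec kinases and scaffolds did not share a direction. Of 16 measured genes, 4 were higher and 1 lower between the gates in wild type and 2 higher and 3 lower in knockout. Beside the counts of this list and the next stood 35.1% and 34.3% of all measured genes past 2-fold in wild type and knockout. Lat2, a membrane scaffold, was at 150, 60.6, 147 and 50.1 CPM, and Gab3, a docking protein of macrophages, at 7.16, 30.8, 6.75 and 40.03 CPM, with 91.9% of the knockout unselected counts in 1 cell. Of 16 genes of phospholipase C and calcium, none was higher and 3 lower in wild type and 2 higher and 3 lower in knockout. Stim2, a calcium sensor of the endoplasmic reticulum, was at 86.3 and 15.8 CPM in wild-type unselected and gated cells and at 70.4 and 19.3 CPM in knockout ones.

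Of 19 genes of PI3 kinase, Akt and mTOR, 4 were higher and 3 lower between the gates in wild type. In knockout 0 were higher and 5 lower, beside 35.1% and 34.3% of all measured genes past 2-fold in wild type and knockout. Pik3r1, a regulatory subunit of PI3 kinase, was at 148 and 65.4 CPM in wild type and 170 and 66.3 CPM in knockout, unselected and gated. Pik3r5, another regulatory subunit, was at 93.7 and 37.2 CPM in wild type and 90.8 and 21.8 CPM in knockout. Pik3r1 and Pik3r5 were chosen for these differences by the size rule, so their direction says nothing of their list.

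Among 13 inhibitory receptors, which recruit Ptpn6 or Inpp5d, 2 were higher and 3 lower between the gates in wild type. In knockout 2 were higher and 4 lower. For this list and the next, the share of all measured genes past 2-fold was 35.1% in wild type and 34.3% in knockout. Lilrb4 was at 5.21 and 56.3 CPM in wild type and 19.1 and 170 CPM in knockout, unselected and gated, but near-identical family members make its counts uncertain. Cd22, a sialic acid receptor, was at 3.93 and 48.2 CPM in wild type and 6.91 and 74.3 CPM in knockout. Of 14 phosphatases and other brakes, 2 were higher and 3 lower in wild type and 1 higher and 2 lower in knockout. Dok3, an adaptor of Inpp5d, was at 83.2 and 28.5 CPM in wild type and 49.7 and 28.5 CPM in knockout.

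Of 8 measured genes for shedding and cleavage, 1 was higher and none lower between the gates in either genotype. All measured genes past 2-fold made up 35.1% in wild type and 34.3% in knockout. The sheddase Adam10 was at 245, 224, 318 and 203 CPM. Of 6 genes that belong to the Trem cluster beside Trem2, 3 reached 5 CPM. Treml2 was at 20.6, 15.6, 9.44 and 17.3 CPM, and Trem1, a receptor that also pairs with Tyrobp, was at 0, 2.36, 0 and 11.7 CPM. Trem1 was found in 13.2% of knockout gated cells after thinning, and 1 cell held 96.1% of its counts in wild-type gated cells.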

How the data were processed

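The authors deposited 1 table of raw read counts per gene, with 1 cell per column. Per the submitters' processing notes, the build was mm10 and the tools were HTSeq, Picard, STAR 2.5.3a and Trim Galore 0.4.3. Annotation, strand setting and knockout allele were not known here. Groups, plates and quality calls came from the labels. Cells passing all 3 quality criteria were used, spike-ins (92 RNAs, 3.56% of counts) stayed out of library sizes, and doublets were not called. The 9 genes and the lists were chosen with earlier results of these data known.

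Counts were summed per group and expressed as CPM, with exact Poisson intervals. Differences use log2(CPM + 1). No model was fitted and no p-value computed, since each group is 1 sample. Shares use cells thinned to 100000 gene counts. A gene counted as measured at 5 CPM in any group. Lengths are those of the longest principal transcript in GENCODE M21. Besides the 9 genes, up to 3 genes past the size rule per list and comparison could be named, and the 5 genes of nearest pattern. Csf1r, Clec5a, Klrk1, Fcer1g, Lyn and Adam10 fall outside that rule and were chosen after their values were seen. Of the 12 lists, the values of 1 list and of 1 further gene are not reported here. Scaling alternatives used edgeR 4.0.16 (TMM) and DESeq2 1.42.0 size factors, spike-ins, other pseudocounts, cell sets and depth. Leaving out cells high in border-associated macrophage markers and the union of exons as length were added after seeing the data. The fold code was tested on simulated data. Python 3.11.15, numpy 2.4.6, pandas 2.3.3, scipy 1.17.1 and R 4.3.3 were used.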

Additional observations from a re-analysis of the deposited data

Results flagged for a closer look

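The gate difference of Ptpn6 had opposite signs in the genotypes, -0.36 in wild type and 0.06 in knockout on the log2 scale, and the difference of 0.42 was not tested.

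Trem2 and Tyrobp reads were also present in the 35 cells that failed the quality criteria, which enter the comparisons only in the alternative with all cells. In wild-type unselected cells the 12 failing cells held Trem2 at 485 CPM and Tyrobp at 553 CPM. In the 3 failing wild-type gated cells the levels were 1856 and 1164 CPM, and in the 3 failing knockout unselected cells 491 and 1528 CPM. The 17 failing knockout gated cells had a median of 399 gene counts, and their Trem2 and Tyrobp levels were 920 and 4844 CPM, from 500 and 2632 counts.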

How the results depend on the processing

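Each group is 1 plate, so no alternative replaces a replicate. The number of the 9 genes at 2-fold or more was 1, 1, 0 and 0, beside 29.8%, 23.5%, 35.1% and 34.3% of all measured genes (knockout against wild type unselected and gated, gated against unselected in wild type and knockout). By median CPM per cell it was 3, 2, 1 and 1, where sparse genes have medians near 0. Between the gates in wild type the number of the 9 genes was 1 in 7 alternatives, each time Hcst, and 2 by spike-in scaling. The 7 were mean CPM per cell, TMM, median-of-ratios factors, 0.1 CPM added, all cells, without each gene's highest cell and thinned cells. Beside these stood 34.4% to 37.9% of all measured genes in the 7 alternatives and 36.2% by spike-in scaling. In knockout it was 3 by TMM and median-of-ratios factors, 5 by spike-ins, 1 without the highest cell, 1 in thinned cells and 2 in matched cells (Plcg2 lower and Pik3ap1 higher in gated cells). The other alternatives tried left the number of the 9 genes unchanged.

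Trem2 was lower in knockout in every alternative. In unselected cells (-2.28) it was -2.33 by median cell, -2.33 by TMM, -2.34 by median-of-ratios factors, -2.77 by spike-ins, -2.23 with 10 CPM added, -2.21 with all cells and -2.20 in matched cells. In gated cells (-1.96) it was -2.01 by mean cell, -2.05 by median cell, -1.91 by TMM, -1.93 by median-of-ratios factors and with 10 CPM added, -1.58 by spike-ins, -2.02 in thinned cells and -1.99 without cells high in border-associated macrophage markers. Those without a value here stayed within the counting interval.

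The rho of Tyrobp with Trem2 (0.23, 0.28, 0.14 and 0.10 by plate) moved by over 0.1 only per spike-in count (0.44, 0.68, 0.43 and 0.63) and, as Pearson's r, in wild-type unselected cells (0.039). Hcst had a count in 7.69%, 21.1%, 10.0% and 39.5% of thinned cells and in 8.97%, 26.7%, 11.11% and 50.0% at full depth.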
